A study of Mus musculus with 9 samples.

Results

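The mitochondrial ribosomal proteins were taken as all genes whose symbol is Mrpl or Mrps followed by a number, with or without a further letter, on probe sets annotated with a single gene symbol. This gave 74 of the 12393 genes named in this way on the array, 47 with a large subunit symbol (Mrpl) and 27 with a small subunit symbol (Mrps), on 127 probe sets. The rule reads gene symbols alone. The data are 9 single-colour Affymetrix arrays of total RNA from left and right striatum of male C57BL/6J mice at 56 days of age. There were 3 arrays of controls given saline (Control), 3 of mice that received methamphetamine (METH) and 3 of mice that received MPTP, and the labels name no transgene or mutant allele in any group. The sources used here give no dose, no schedule and no interval between treatment and dissection. METH is a psychostimulant that releases dopamine, and MPTP is a neurotoxin whose active metabolite is taken up by dopamine neurons and inhibits respiratory complex I. Both serve as models of dopamine terminal injury, and the injury itself was not measured here.

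The mitochondrial ribosome translates the messenger RNAs encoded by mitochondrial DNA, which make core subunits of the respiratory chain and of the ATP synthase. All of its protein subunits are encoded in the nucleus, made in the cytosol and imported. Many descend from bacterial ribosomal proteins and others have no bacterial relative. Neurons draw most of their ATP from the respiratory chain, and these genes are expressed throughout the brain. Striatal RNA comes mainly from cells whose bodies lie in the striatum, such as spiny neurons and glia, whereas the cell bodies of dopamine neurons lie in the midbrain.

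RefSeq promoter windows (assembly GRCm38.p6, 250 bases before to 50 after a gene's start) were matched by symbol for 65 of the 74 genes. Short motifs tied by textbook knowledge to mitochondrial or housekeeping promoters were searched in them on both strands. The 65 genes had 71 windows, and a gene was counted where any of its windows held the motif. The NRF1 site was searched as GCGC and TGCGC with any 1 base between them. It was in 12 genes (18.5%), against 12.7% of the 6464 tested genes with a window and 5.19% of all 27025 genes with a window. The ETS core CCGGAAG, which GABP binds, was in 24 (36.9%), against 20.8% and 9.93%. The YY1 site AAGATGG was in 12 (18.5%), against 9.07% and 7.28%. The SP1 box GGGCGG was in 34 (52.3%), against 71.1% and 38.2%. The share of G and C in the windows had a median of 58% for the 65 genes and 61.3% for the tested genes. Its part in the motif shares was not tested. At least 1 of the NRF1, ETS and YY1 motifs was in 40 of the 65 genes, and both NRF1 and ETS were in 4. A match describes the letters only. The 250 bases upstream of the start are shown for 3 of the 4 genes with an unadjusted p under 0.05 in any comparison (Mrps28, the remaining one, was not in the table), with matches in capitals: the NRF1 site of Mrpl9 at chr3:94443086-94443335 on the plus strand, the SP1 boxes of Mrps6 at chr16:92058086-92058335 on the plus strand, 2 of its 4 overlapping by a base, and the SP1 boxes of Mrps18b at chr17:35916441-35916690 on the minus strand. The window of Mrps18b also held an ETS core past the start, which is not shown.
Mrpl9: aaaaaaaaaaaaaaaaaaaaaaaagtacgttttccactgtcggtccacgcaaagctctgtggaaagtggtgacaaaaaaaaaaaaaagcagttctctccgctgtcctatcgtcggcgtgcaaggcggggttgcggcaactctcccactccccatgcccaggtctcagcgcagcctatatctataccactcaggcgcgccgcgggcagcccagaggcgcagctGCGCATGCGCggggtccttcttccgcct
Mrps6: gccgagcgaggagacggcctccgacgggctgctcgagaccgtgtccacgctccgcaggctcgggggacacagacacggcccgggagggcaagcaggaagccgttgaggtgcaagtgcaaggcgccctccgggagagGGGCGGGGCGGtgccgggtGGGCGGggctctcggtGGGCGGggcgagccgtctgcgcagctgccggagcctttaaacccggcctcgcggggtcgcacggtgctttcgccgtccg
Mrps18b: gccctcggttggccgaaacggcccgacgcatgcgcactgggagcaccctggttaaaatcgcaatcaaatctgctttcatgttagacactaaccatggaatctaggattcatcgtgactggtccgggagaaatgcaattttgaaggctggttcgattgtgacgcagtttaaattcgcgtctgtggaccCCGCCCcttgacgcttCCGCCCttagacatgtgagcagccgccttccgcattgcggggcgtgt

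Many of these genes are arranged head to head with another gene. A gene starting on the opposite strand within 500 bases was found for 21 of the 65 (32.3%), against 18.1% of the tested genes with a window. One such pair joins the subunits: Mrpl46 and Mrps11 start 42 bases apart, and the 41 bases between them, at chr7:78783090-78783130 and read on the minus strand in the direction of Mrpl46, are shown with an SP1 box in capitals.
Mrpl46 and Mrps11: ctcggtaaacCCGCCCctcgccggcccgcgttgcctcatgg
Mrpl46 had signals of 4004, 3879 and 4913 in Control, 4594, 3852 and 3805 in METH, and 4634, 4750 and 4079 in MPTP. Mrps11 had 2347, 1729 and 2222 in Control, 1973, 2467 and 2027 in METH, and 1909, 1947 and 2100 in MPTP. In both genes the groups overlapped. The log2 differences from Control were -0.06 ± 0.12 after METH and 0.08 ± 0.12 after MPTP for Mrpl46, and 0.04 ± 0.13 and -0.07 ± 0.13 for Mrps11 (± is the SE of the fit throughout). Split by motif, the 65 genes had median log2 differences of -0.11 after METH for genes with an NRF1 site and -0.03 for those without, -0.01 and -0.05 for the ETS core, -0.04 and -0.04 for YY1, and -0.06 and -0.01 for SP1. After MPTP these medians were -0.03 and -0.04, -0.04 and -0.03, -0.07 and -0.01, and -0.04 and -0.04.

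A signal is the deposited linear brightness of a probe set, a group of short oligonucleotides for a transcript, and differences are on the log2 scale of the signal as deposited. All 9 arrays had the same trimmed mean, 2501, their medians ran from 1111 to 1233, with METH 2 at the upper end, and pairs of arrays had Spearman coefficients of 0.97 to 0.985. Of the 7 spiny neuron markers tested, Penk had signals of 47496 to 59113, Drd2 of 14795 to 20550 and Pdyn of 1361 to 2200. Those of Tac1, Ppp1r1b, Rgs9 and Pde10a lay between Pdyn and Penk. No other tissue was compared, so these signals do not test the striatal label. All 74 mitochondrial ribosomal protein genes had a probe set above the filter on low signals, as did 7964 genes in all. In striatal tissue, fewer cells of a type and less RNA per cell cannot be told apart.

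Mitochondrial ribosomal protein transcripts were close to their control level in the METH striatum. By limma, 0 of the 74 genes passed an adjusted p of 0.05, where 1 of the 7964 genes tested did (0.0126%), Gfap, the intermediate filament gene of astrocytes. The lowest adjusted p among the 74 was 0.503. At an unadjusted p under 0.05 there were 2, Mrpl9 higher and Mrps28 lower, 1 of 74 in each direction. Over all genes this share was 8.25%, 5.20% higher and 3.05% lower. The large subunit genes had a median log2 difference of -0.04, with 27 of 47 below 0 and a range of -0.36 to 0.41. The small subunit genes had a median of -0.03, with 18 of 27 below 0 and a range of -0.36 to 0.12. Over all genes tested the median was 0.00, and 49.7% lay below 0 against 60.8% of the 74. For Mrpl9 and Mrps17 each METH array exceeded each Control array, and for Mrpl24, Mrpl38, Mrpl47, Mrpl55 and Mrps28 each METH array was under each Control array. These 7 were 9.46% of the 74, and the groups did not overlap for 13.7% of all genes (6.48% higher and 7.19% lower).

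The differences were also small after MPTP. Again 0 of 74 passed, where 1 of all genes tested did (0.0126%), also Gfap, and the lowest adjusted p among the 74 was 0.857. Mrpl9 was higher and Mrps28 lower at an unadjusted p under 0.05, 2 of 74 against 5.49% of all genes (3.54% higher and 1.95% lower). Both comparisons use the same Control arrays. The large subunit median was -0.01, with 28 of 47 below 0 and a range of -0.27 to 0.37. The small subunit median was -0.06, with 16 of 27 below 0 and a range of -0.28 to 0.39. The upper end of the latter range is Mrps30, a large subunit protein despite its symbol. Over all genes the median was 0.01 and 48.2% lay below 0, against 59.5% of the 74. MPTP and Control arrays did not overlap for 10 of the 74 (13.5%), against 11.3% of all genes (6.13% higher and 5.14% lower). MPTP was above for Mrpl9 and Mrpl41, and below for Mrpl12, Mrpl18, Mrpl38, Mrpl55, Mrps6, Mrps15, Mrps25 and Mrps28.

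**Figure D1:**
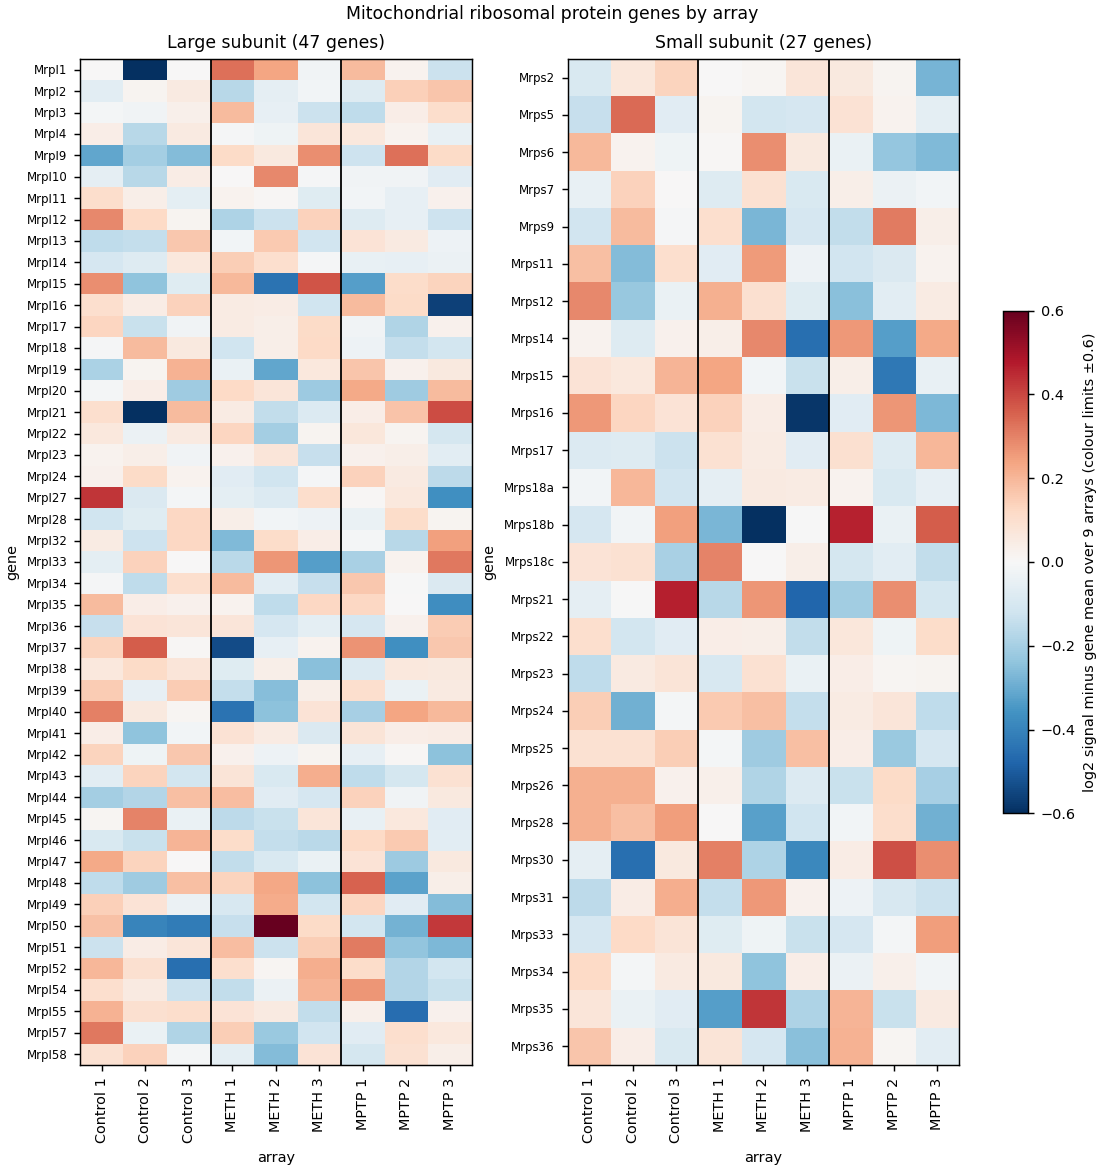
Heat maps of the 47 large and 27 small subunit genes (rows, in symbol order) on the 9 arrays (columns, 3 a group); colour is the log2 signal minus the gene's own mean over the 9 arrays, limited to 0.6 in either direction. No block of rows separates the groups; Mrpl9 is low and Mrps28 high on all 3 Control arrays.

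**Figure D2:**
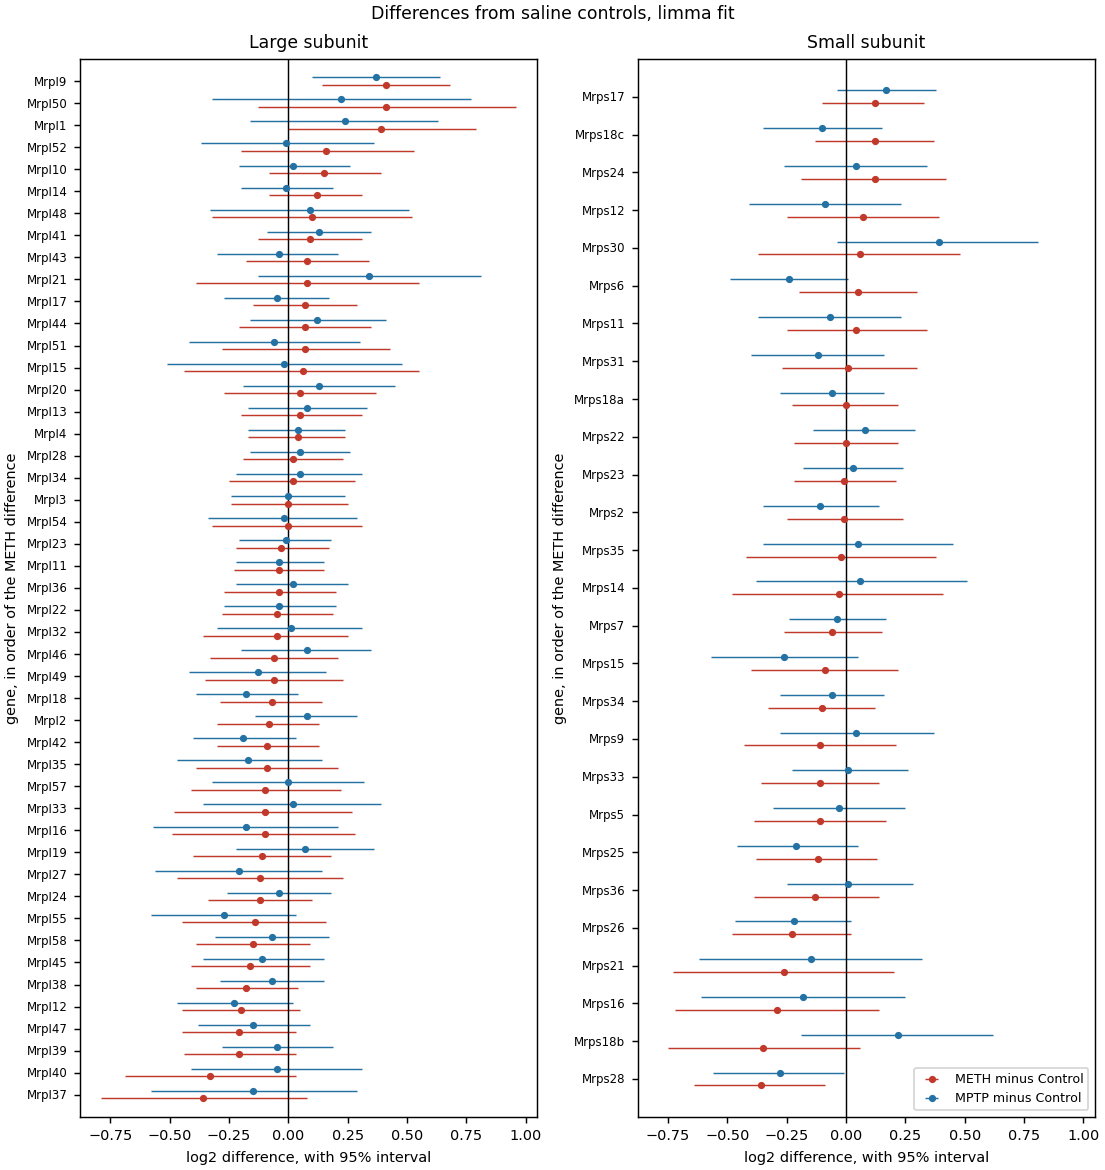
Log2 difference from Control (x axis) with the 95% interval of the limma fit for each gene (y axis), METH in red and MPTP in blue, both against the same 3 Control arrays. The intervals of Mrpl9 and Mrps28 lie clear of 0 in both comparisons, before adjustment.

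The precision bounds what could have been missed. The SE of a difference had a median of 0.12 log2 units over the 74 genes (0.08 to 0.24), and the median SD within groups was 0.15, as over all genes tested. The 95% interval of the difference lay inside 1.5-fold in both directions for 65 of 74 genes after METH and for 66 after MPTP, and inside 2-fold for all 74 in both. These intervals are those of single genes, not adjusted over the list. On the probe sets used, the steadiest genes were Mrpl11 and Mrpl23, each with an SD of 0.06 log2 units over all 9 arrays. Mrpl11 is the counterpart of a bacterial protein at the base of the ribosomal stalk, and its signals there ran from 4688 to 5295. Its other probe sets above the filter gave 0.11 and -0.20 after METH and -0.26 and 0.02 after MPTP.

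Mrpl9, whose bacterial counterpart lies at the base of the ribosomal stalk that guides tRNA exit, gave the smallest p of the large subunit. Its signals were 2399, 2584 and 2481 in Control, 3218, 3096 and 3603 in METH, and 2730, 3739 and 3223 in MPTP. Every treated array lay above every Control array, with group means of 2488 ± 92.6, 3306 ± 264 and 3231 ± 504 (SD, n = 3 each). The log2 difference was 0.41 ± 0.12 after METH (95% interval 0.14 to 0.68, adjusted p = 0.503) and 0.37 ± 0.12 after MPTP (0.10 to 0.64, adjusted p = 0.857). A second Mrpl9 probe set above the filter gave 0.13 and 0.14. Leaving out MPTP 2 gave 0.25 for MPTP, and leaving out MPTP 1 gave 0.48.

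Mrps28, a small subunit protein, gave the smallest p of its subunit in both comparisons. Its signals were 1534, 1500 and 1575 in Control, 1325, 1055 and 1217 in METH, and 1308, 1422 and 1082 in MPTP. All 6 treated arrays lay below all Control arrays. The Control arrays were close together, with a mean of 1536 ± 37.3 (SD, n = 3), against 1199 ± 136 in METH and 1271 ± 173 in MPTP. The log2 difference was -0.36 ± 0.12 after METH (95% interval -0.64 to -0.09, adjusted p = 0.543) and -0.28 ± 0.12 after MPTP (-0.56 to -0.01, adjusted p = 0.873). Without MPTP 3 the latter was -0.17.

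Among the other large subunit genes, those with the next smallest p after METH had overlapping groups, apart from Mrpl47. Mrpl1, a counterpart of the bacterial stalk protein at the tRNA exit side, had 1371, 881 and 1369 in Control, 1718, 1610 and 1349 in METH, and 1561, 1385 and 1250 in MPTP, a difference of 0.39 ± 0.18 after METH and 0.24 ± 0.18 after MPTP. Control 2 was the lowest of the 9 arrays for Mrpl1, and without it the METH difference was 0.18. The other Mrpl1 probe sets, both under the filter, gave -0.28 and 1.19 after METH and -0.29 and 0.85 after MPTP. Mrpl40, which lies in the region deleted in DiGeorge syndrome in people, had 1586, 1339 and 1300 in Control, 947, 1086 and 1364 in METH, and 1121, 1517 and 1475 in MPTP. METH 3 lay inside the Control range, and the differences were -0.33 ± 0.16 after METH, or -0.20 without METH 1, and -0.05 ± 0.16 after MPTP. Mrpl47 had 2222, 2080 and 1899 in Control against 1714, 1784 and 1847 in METH, and Mrpl39 had 4847, 4215 and 4847 against 3954, 3651 and 4469. Both had -0.21 after METH (SE 0.11 and 0.10), and -0.15 ± 0.11 and -0.05 ± 0.10 after MPTP. The adjusted p-values of these 4 genes were 0.613 to 0.632 after METH.

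Mrpl12, a stalk protein that recruits translation factors and has been reported to bind the mitochondrial RNA polymerase, had 3097, 2757 and 2566 in Control. It had 2235, 2321 and 2796 in METH and 2402, 2451 and 2327 in MPTP. The 3 MPTP arrays lay below all Control arrays, whereas METH 3 lay inside their range. The differences were -0.20 ± 0.11 after METH (adjusted p = 0.657) and -0.23 ± 0.11 after MPTP (adjusted p = 0.873), and -0.12 and -0.15 without Control 1. Mrpl55 had 2454, 2269 and 2286 in Control, 2247, 2202 and 1918 in METH, and 2168, 1544 and 2159 in MPTP, with differences of -0.14 ± 0.14 and -0.27 ± 0.14. MPTP 2 was its lowest array, and without it the MPTP difference was -0.11. Mrpl18 had -0.07 ± 0.10 and -0.18 ± 0.10, and Mrpl42 had -0.09 ± 0.10 and -0.19 ± 0.10, in the same order. None of these 4 genes passed in either comparison.

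In the small subunit, Mrps26 had 3993, 3995 and 3499 in Control, 3511, 3033 and 3252 in METH, and 3133, 3731 and 2993 in MPTP. Its differences were -0.23 ± 0.11 after METH (adjusted p = 0.624) and -0.22 ± 0.11 after MPTP (adjusted p = 0.873), and 1 array of each treated group lay inside the Control range. Mrps16, whose loss causes a human mitochondrial translation disease, had 2943, 2687 and 2601 in Control, 2707, 2537 and 1640 in METH, and 2346, 2949 and 2035 in MPTP. METH 3 stood lowest, and the differences were -0.29 ± 0.19 after METH, or -0.06 without METH 3, and -0.18 ± 0.19 after MPTP. Mrps21 had 3416, 3536 and 4890 in Control and 3157, 4252 and 2550 in METH, with -0.26 ± 0.21 after METH and -0.15 ± 0.21 after MPTP. Its METH value was -0.10 without Control 3, -0.09 without METH 3, -0.46 without METH 2 and -0.47 with array weights. For Mrps15, another counterpart of a bacterial small subunit protein, the probe set used gave -0.09 ± 0.14 and -0.26 ± 0.14.

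**Figure D3:**
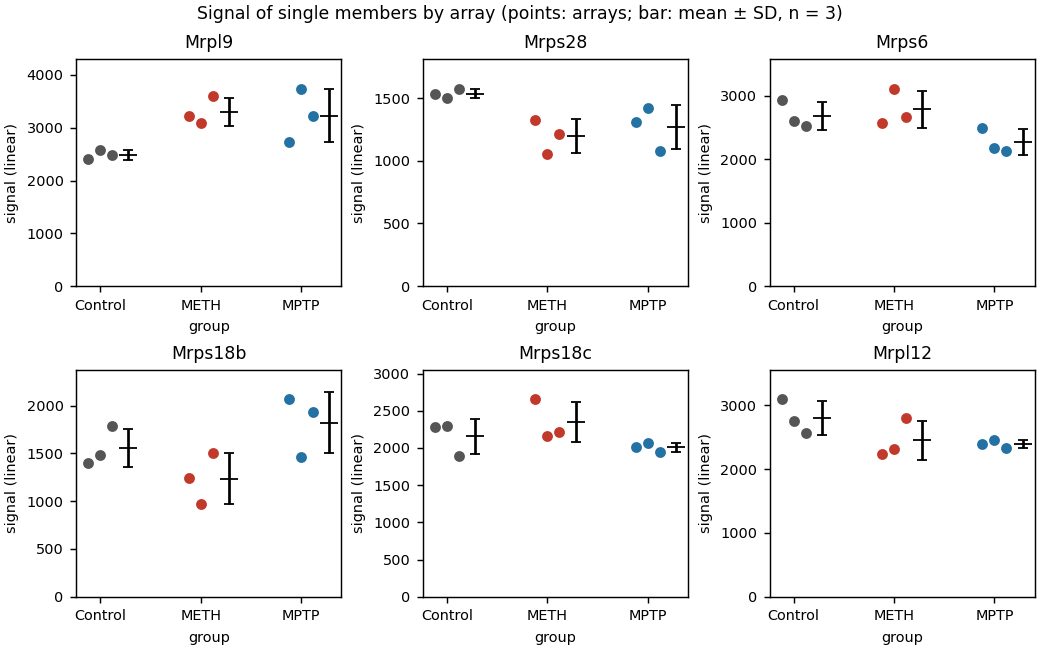
Signals (y axis, linear, from 0) of 6 genes on each array, coloured by group (x axis), with the mean ± SD of 3 arrays as a bar beside the points. Every treated array is above Control for Mrpl9 and below it for Mrps28; for Mrps18b, METH reaches down to 968 and MPTP up to 2066.

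METH and MPTP were also compared directly. Here 0 of 74 genes passed, as did 0 of all genes tested (0%), and the lowest adjusted p was 0.999. At an unadjusted p under 0.05 there were 2 of 74, Mrps6 higher and Mrps18b lower in METH, and 227 of all genes (2.85%, 1.56% higher and 1.29% lower). The large subunit median was -0.01 and the small subunit median -0.04 (METH minus MPTP), against -0.01 over all genes, and 42 of 74 lay below 0 (56.8%) against 52.9% of all genes. METH arrays lay above all MPTP arrays for Mrpl10, Mrpl14, Mrpl17, Mrps6 and Mrps18c, 5 of 74 (6.76%), and below them for 0, where all genes had 3.39% above and 3.70% below, 7.09% together.

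Mrps18b had the largest difference between the toxins among the 74 genes. Mammals carry 3 genes related to the single bacterial S18 protein, Mrps18a, Mrps18b and Mrps18c, and despite its symbol the Mrps18a protein sits in the large subunit. Mrps18b had 1399, 1484 and 1784 in Control, 1242, 968 and 1500 in METH, and 2066, 1461 and 1934 in MPTP. METH 3 lay above MPTP 2, so the groups overlapped. The METH minus MPTP difference was -0.56 ± 0.18 (95% interval -0.97 to -0.16, adjusted p = 0.999), made up of -0.35 ± 0.18 after METH and 0.22 ± 0.18 after MPTP. It was -0.40 without METH 2 and -0.72 without METH 3 or without MPTP 2.

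Mrps18c had 2284, 2297 and 1886 in Control, 2654, 2164 and 2213 in METH, and 2006, 2065 and 1949 in MPTP. Its METH arrays lay above its MPTP arrays, the opposite order to Mrps18b, with a difference of 0.22 ± 0.11 (adjusted p = 0.999). Mrps18a had 3692, 4291 and 3451 in Control, 3602, 3886 and 3869 in METH, and 3791, 3511 and 3617 in MPTP. Its differences were 0.00 ± 0.10 after METH and -0.06 ± 0.10 after MPTP, both within the spread of the arrays, and their sign turned under other settings. Whether the 3 related genes differ from each other in their response was not tested.

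Mrps6, a counterpart of the bacterial protein that pairs with S18, had 2935, 2599 and 2514 in Control, 2573, 3108 and 2665 in METH, and 2495, 2180 and 2132 in MPTP. The 3 MPTP arrays were the lowest of the 9. The difference was -0.24 ± 0.11 after MPTP (adjusted p = 0.873), 0.05 ± 0.11 after METH and 0.29 ± 0.11 between METH and MPTP (adjusted p = 0.999). Of the other genes named for this comparison, Mrpl14, which lies at the face between the subunits, had 2693, 2610 and 2419 in METH and 2357, 2351 and 2377 in MPTP, a difference of 0.12 ± 0.09. Mrpl2, part of the peptidyl transferase region, had -0.16 ± 0.10 and Mrpl19 -0.18 ± 0.13. Mrpl39 had -0.16 ± 0.10, Mrpl40 -0.28 ± 0.16 and Mrps15 0.18 ± 0.14.

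A few members are placed or named apart from their subunit. Mrps30, which carries a small subunit symbol but is a protein of the large subunit, had 2397, 1820 and 2593 in Control, 3068, 2190 and 1900 in METH, and 2569, 3255 and 3020 in MPTP. Only MPTP 1 lay within the Control range among its MPTP arrays, and the difference was 0.39 ± 0.19 after MPTP (95% interval -0.04 to 0.81, adjusted p = 0.873), or 0.24 without Control 2, and 0.06 ± 0.19 after METH. Mrps36, now known as a component of the 2-oxoglutarate dehydrogenase complex of the citric acid cycle, had 4012, 3671 and 3351 in Control, 3770, 3337 and 3008 in METH, and 4128, 3605 and 3421 in MPTP. Its differences were -0.13 ± 0.12 and 0.01 ± 0.12. The signs of Mrps30 after METH and of Mrps36 after MPTP turned under other settings. With Mrps30 and Mrps18a placed in the large subunit and Mrps36 left out, the METH medians were -0.04 (large) and -0.04 (small). After MPTP the alternatives other than arrays left out, this placement among them, gave medians of -0.05 to -0.01 (large) and -0.10 to -0.03 (small).

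The 2 most variable large subunit genes over the 9 arrays, Mrpl50 and Mrpl21, varied as much within groups. Mrpl50 had the largest SD, 0.36 log2 units over all arrays and 0.37 within groups, with 2346, 1582 and 1555 in Control, 1888, 3212 and 2253 in METH, and 1928, 1706 and 2792 in MPTP. Its difference after METH, 0.41 ± 0.24, had an interval of -0.13 to 0.96, and was 0.20 without METH 2 and 0.61 without Control 1. Mrpl21 had 2486, 1416 and 2639 in Control, 2394, 2090 and 2186 in METH, and 2381, 2604 and 3039 in MPTP. Control 2 was low by itself, and the differences of 0.08 ± 0.21 and 0.34 ± 0.21 include it. Without it the differences of Mrpl21 were -0.21 after METH and 0.06 after MPTP. The most variable genes with a small subunit symbol were Mrps18b and Mrps30, described above, with SDs of 0.33 and 0.30 over all arrays and 0.26 and 0.28 within groups.

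The array averages of the subunits stayed within narrow bounds. The mean log2 deviation of the 47 large subunit genes from their own 9-array means was 0.048, -0.037 and 0.014 in Control, -0.003, -0.020 and -0.002 in METH, and 0.030, -0.026 and -0.003 in MPTP. For the 27 small subunit genes it was 0.042, 0.016 and 0.050 in Control, 0.019, 0.005 and -0.116 in METH, and 0.017, -0.012 and -0.022 in MPTP. One array, METH 3, was the lowest for the small subunit, with 20 of 27 genes below their own mean and 7 at their lowest of 9 arrays. The same array was at -0.002 for the large subunit and -0.022 over all genes tested. Without METH 3 the small subunit median between METH and MPTP moved from -0.04 to 0.01. Genes with a bacterial counterpart (46) had medians of -0.03 after METH and -0.02 after MPTP, and genes without one (28) had -0.06 and -0.03.

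**Figure D4:**
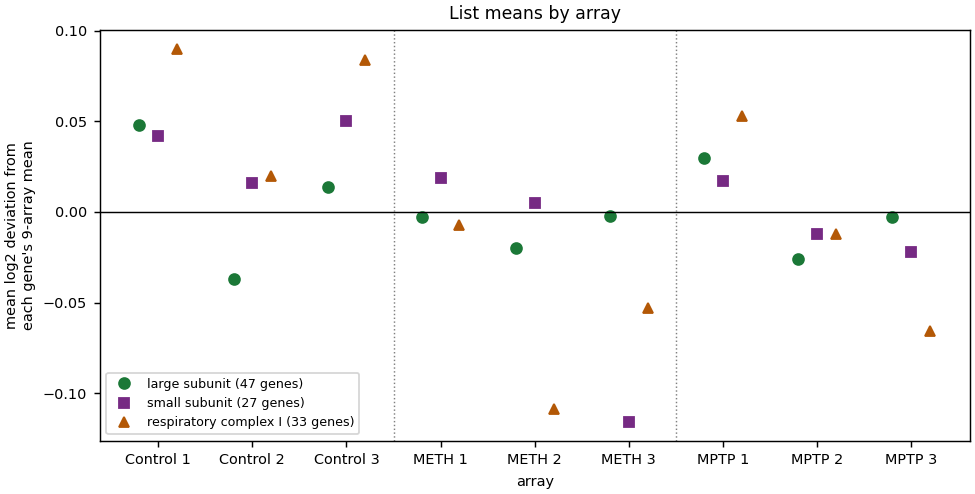
Mean log2 deviation from each gene's own 9-array mean (y axis) for the large subunit, the small subunit and respiratory complex I on each array (x axis). The small subunit point of METH 3, -0.116, lies below the other 8, while the complex I points of the 3 METH arrays lie below those of the 3 Control arrays.

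Complex I subunits, some of whose partners the mitochondrial ribosome makes, lay below 0 for most of their genes. After METH 31 of 33 complex I genes lay below 0 (93.9%, median -0.13), and after MPTP 26 of 33 (78.8%, median -0.08). In either comparison 0 of 33 passed. Over all genes tested 49.7% lay below 0 after METH (median 0.00) and 48.2% after MPTP (median 0.01). Cytosolic ribosomal proteins, the corresponding parts of the ribosome outside mitochondria, had 28 of 42 below 0 after METH (median -0.04) and 25 of 42 after MPTP (median -0.01), with 0 passing. A difference between these lists and the mitochondrial ribosomal proteins was not tested, and these lists were not counted under other normalizations.

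Mitochondrial ribosome subunits listed under other symbols were also near Control. Dap3, a GTP-binding small subunit protein first named as a cell death factor, had 4180, 4027 and 4148 in Control, 3793, 3850 and 4318 in METH, and 4144, 3672 and 3892 in MPTP, with differences of -0.05 ± 0.09 and -0.08 ± 0.09. Ptcd3, an RNA-repeat protein of the small subunit, had -0.08 ± 0.09 and 0.05 ± 0.09. All 4 such genes tested lay below 0 after METH and 3 of 4 after MPTP (49.7% and 48.2% of all genes), and 0 passed. The 6 mitochondrial translation factors tested had 3 below 0 in each comparison with 0 passing. Tufm, the elongation factor that brings tRNA to the ribosome, had 1869, 2486 and 2171 in Control and 2109, 1898 and 1301 in METH, a difference of -0.32 ± 0.19 (adjusted p = 0.678), and -0.17 ± 0.19 after MPTP.

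Genes that build the mitochondrial ribosome or feed it with RNA were counted in the same way. Of 12 assembly and rRNA modification genes, 7 lay below 0 after METH and 6 after MPTP, with 0 passing. Over all genes tested 49.7% lay below 0 after METH and 48.2% after MPTP. These shares stand beside each count below 0 in this paragraph. After METH 25% of the 12 did not overlap Control, 1 higher (Mrm1, 0.29 ± 0.17) and 2 lower. Over all genes this share was 13.7%. At an unadjusted p under 0.05 there were 2, both lower, against 8.25% of all genes, 3.05% lower. They were Ngrn with -0.29 ± 0.11 and Mterf4, the partner of an rRNA methyltransferase, with -0.26 ± 0.11 (adjusted p = 0.543 and 0.565). After MPTP 8.33% of the 12 did not overlap Control, against 11.3% of all genes, and 0 had an unadjusted p under 0.05. Of 15 genes of mitochondrial DNA transcription and RNA upkeep, 11 and 12 lay below 0, with medians of -0.09 and -0.03 and 0 passing. Tfam, which packages mitochondrial DNA, had -0.18 ± 0.12 and -0.01 ± 0.12. Polrmt, the mitochondrial RNA polymerase, had 0.02 ± 0.13 in both comparisons, and Lrpprc, which stabilises mitochondrial mRNAs, had -0.11 ± 0.12 and -0.02 ± 0.12. Of 8 regulators of mitochondrial gene programmes, 7 and 6 lay below 0, with 0 passing. Nrf1, the factor of the NRF1 site, had 0.02 ± 0.16 and -0.21 ± 0.16. Ppargc1a, the coactivator PGC-1alpha, had -0.14 ± 0.14 and 0.00 ± 0.14. Its relative Ppargc1b had -0.21 ± 0.08 in both comparisons (adjusted p = 0.543 and 0.873), with 6514, 7095 and 6548 in Control, 5881, 5806 and 5671 in METH, and 6065, 5502 and 5869 in MPTP, so that each treated array was under each Control array. Of the 8 regulators 12.5% did not overlap Control in each comparison, against 13.7% of all genes after METH and 11.3% after MPTP. Cycs, which encodes cytochrome c, had -0.29 ± 0.08 after METH (adjusted p = 0.503) and -0.16 ± 0.08 after MPTP (adjusted p = 0.873).

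Among the markers of other cells, Gfap alone passed, with 1.13 ± 0.13 after METH (adjusted p = 0.0404) and 1.14 ± 0.13 after MPTP (adjusted p = 0.0382). With each of the 9 arrays left out in turn, its call was lost in 6 fits for METH and in 8 for MPTP, while its difference stayed between 1.04 and 1.23 and between 1.06 and 1.24. Of 7 astrocyte markers, 6 lay above 0 after METH (median 0.07) and 5 after MPTP (median 0.17). All 6 microglial markers tested lay above 0 in both, with medians of 0.26 and 0.14 and 0 passing, and 6 of 6 oligodendrocyte markers lay above 0 after MPTP (median 0.15) and 3 of 6 after METH (median 0.05). Of 7 spiny neuron markers, 5 lay below 0 after METH (median -0.05) and 6 after MPTP (median -0.08), with 0 passing. Over all genes tested 49.7% and 48.2% lay below 0. Endothelial markers had medians of 0.07 and 0.06 over 5 genes. Ttr, the leading choroid plexus transcript, ranged from 2853 to 65370 over the arrays without separating the groups, and the blood marker Hbb-b2 had 0.69 ± 0.23 and 0.57 ± 0.23, not passing. The part of cell makeup in the values of the mitochondrial ribosomal proteins was not tested.

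Probe sets of the same gene did not always give the same direction. Of the 74 genes, 33 had several probe sets and 41 had 1, and 107 of the 127 probe sets lay above the filter. In the 24 genes with 2 or more above it, the sign of the difference was not the same in all of them for 12 genes after METH, for 14 after MPTP and for 9 in both. Signs were read from values rounded to 2 decimals, with 0.00 counted as neither, which leaves out Mrpl3 in both comparisons and Mrpl57 after MPTP. The genes counted in either comparison were Mrpl11, Mrpl13, Mrpl15, Mrpl19, Mrpl28, Mrpl39, Mrpl41, Mrpl44, Mrpl49, Mrpl52, Mrps2, Mrps5, Mrps9, Mrps14, Mrps15, Mrps23 and Mrps24. Mrps24, a counterpart of a bacterial protein of the mRNA entry site, had 0.12 and -0.27 after METH on its 2 probe sets. Mrpl15 had 0.06 on the probe set used and -0.38 to 0.03 on the other 4 above the filter. Mrpl44, which resembles an RNA-cleaving enzyme, had 0.07, -0.18 and 0.18. The 2 probe sets of Mrps15 had nearly equal means (10.79 and 10.78 on the log2 scale) and gave -0.26 and 0.03 after MPTP. Mrpl9 and Mrpl50 had the same sign on both of their probe sets in both comparisons. Mrps28 and the 3 Mrps18 genes had 1 probe set each, so no second probe set bears on them.

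**Figure D5:**
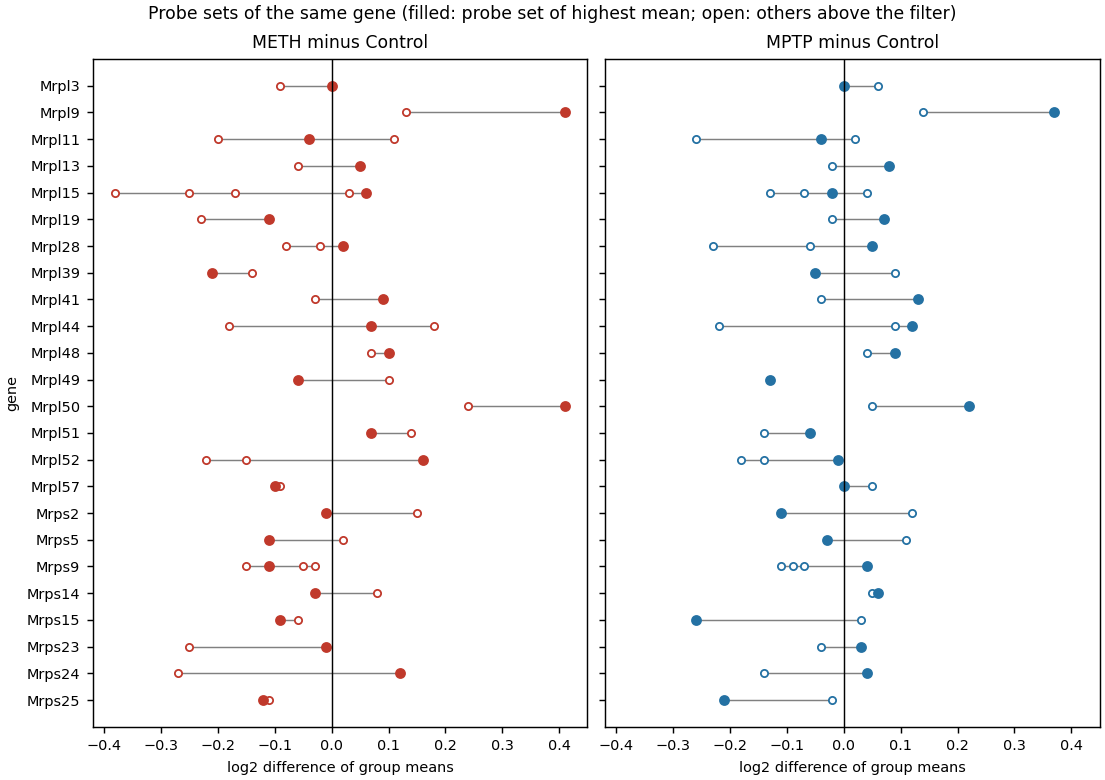
Log2 difference of group means from Control (x axis) for the 24 genes (y axis) with 2 or more probe sets above the filter, METH left and MPTP right; filled points are the probe set of highest mean, open points the others, joined by a line. Lines with points on both sides of 0 mark genes whose probe sets differ in sign, 12 after METH and 14 after MPTP with values rounding to 0.00 counted as neither sign.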

How the data were processed

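Deposited values for 22690 probe sets on 9 arrays were used. RMA is named, without a version, in the submitters' processing notes, but the deposited values are linear intensities from 0.342 to 84013 with equal trimmed means (2% off each end), so how the authors summarised probe sets is unsettled. Names came from the platform annotation, whose array design is smaller than the one in the submitters' text. Of all probe sets, 20380 had 1 symbol, 691 several and 1555 none, and 64 array controls were left out. Of the 691, 3 included a mitochondrial ribosomal protein and were not used.

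Intensities were put on the log2 scale without pseudocount or renormalization. Probe sets under the 40th percentile of mean log2 value (9.53, a signal of 741) were dropped and each gene took its probe set of highest mean, leaving 7964 of 12393 genes. limma 3.58.1 in R 4.3.3 (lmFit, eBayes) fitted 1 mean per group over all 9 arrays, with 6 residual and 3.9 prior degrees of freedom. Tests were two-sided and p-values Benjamini-Hochberg adjusted over all genes tested, with 0.05 as threshold. The code was tested on simulated data. The labels call the arrays biological replicates, and p-values measure the spread between them. The number of arrays limits precision.

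Named genes were the 5 members of each subunit with the smallest p in each comparison, the 2 most variable of each subunit, members of particular placement (Mrpl12, Mrps30, Mrps18a, Mrps18b, Mrps18c and Mrps36), and members whose probe sets differed in sign. Genes whose groups do not overlap were named beside their counts after their values were seen. So were the steadiest genes, Mrpl11 and Mrpl23, the gene pair Mrpl46 and Mrps11, the markers, and Ngrn, Mterf4, Mrm1 and Ppargc1b. The members and lists were chosen with earlier results of these data known. The same replicate number did not pair arrays. Alternatives covered normalization, filter, pseudocount, probe set choice, array weights, the groups fitted, a replicate block and each array left out. For the subunit medians they also covered placing members by position in the mitochondrial ribosome.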

Additional observations from a re-analysis of the deposited data

How the results depend on the processing

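Under all alternatives tried, 0 of the 74 genes passed in each comparison (65 tested with a filter at the 60th percentile, 70 without _x_at and _s_at probe sets). The number of genes called over the whole array, 1 for each toxin, was 0 for METH with arrays centred on their medians, and 0 to 2 with each array left out. Gfap lost its call with centring, no filter, only the 2 groups fitted or the replicate block for each toxin, with array weights for MPTP (adjusted p = 0.0554), and in 6 (METH) and 8 (MPTP) of 9 fits with an array left out, where its adjusted p ran from 0.0391 to 0.273 and from 0.0316 to 0.322. For MPTP the number of genes called over the whole array was 0 with centring, array weights or only the 2 groups fitted. It was 2 with no filter, neither of them Gfap, and 0 to 2 with each array left out. For METH 1 gene was called with no filter and 1 with only the 2 groups fitted, and neither was Gfap. Centring moved the METH medians of the large and small subunits to -0.10 and -0.10 and the large subunit MPTP median to -0.05, while it moved the median of all genes tested to -0.06 after METH and -0.03 after MPTP. It put 57 of 74 genes below 0 after METH and 52 after MPTP, and quantile normalization put 49 and 47 there. Shares of all genes below 0 were not counted under these settings. The small subunit MPTP median, -0.06, ran from -0.10 to -0.03 over the alternatives other than arrays left out. With each array left out, the small subunit median between METH and MPTP ran from -0.08 to 0.01 (0.01 without METH 3, 0.00 without MPTP 2).

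Same-numbered arrays correlated by -0.15 to 0.05 over 9 pairs, 0 of them over 0.1, and 0 arrays correlated best with their own number. A fit with the replicate block called 0 genes for METH and 0 for MPTP over the whole array, against 1 each, and left 0 members called.

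Of 852 alternative values of named genes, 17 turned sign (11 of them with 1 array left out) and 0 passed the test. After METH these were Mrpl21 (-0.01 with array weights, -0.21 without Control 2 and up to 0.24 without other arrays), Mrps30 (-0.01 centred, -0.09 without Control 2, -0.14 without METH 1, up to 0.21) and Mrps18a (0.03 with array weights, 0.08 without Control 2, 0.03 without METH 1, down to -0.07). After MPTP they were Mrps15 (0.03 with only the 2 groups fitted and without METH 1, down to -0.35), Mrps18a (0.03 without Control 2, down to -0.13) and Mrps36 (-0.03 centred, -0.05 without Control 3, -0.06 without MPTP 1, up to 0.08). Between METH and MPTP it was Mrps15 (-0.09 with only the 2 groups fitted, without Control 3 and without METH 1, up to 0.27). For Mrps15 these settings exchange its 2 probe sets of nearly equal mean. The cause of the other turns was not tested. Dim probe sets limit precision, and no detection calls were used here.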
